A study of Mus musculus with 12 samples.

Results

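The 9 genes described here are the proneural transcription factors Neurog1 and Neurog2, the Notch ligands Dll1, Dll3 and Jag1, the receptor Notch1, and the Hes genes Hes1, Hes5 and Hes6. They were taken by symbol from a table of 47069 genes, and all 9 passed the filter on low values that left 18319 genes for testing. The table comes from stranded total RNA-seq of Pdgfra/GFP+ cells, which were isolated by flow sorting from the Pdgfra-H2BGFP strain, a knock-in in which the Pdgfra locus makes a nuclear GFP. Cells of the forebrain (called brain here) or the spinal cord were taken from E13.5 embryos or from P7 pups, at postnatal day 7, giving 4 groups of 3 libraries. All groups carried the reporter on 1 allele and received no treatment. Animals of both sexes were used, and the sexes within each library are not given. The stable reporter protein can still mark cells that have begun to differentiate into oligodendrocytes. The embryos were dissociated by mechanical means alone and the pups with papain, so age and dissociation cannot be told apart.

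Notch signalling passes between touching cells. A ligand of the Delta or Jagged family on the surface of a cell binds a Notch receptor on its neighbour, proteases then release the receptor's inner part, and this part joins the DNA-binding protein Rbpj in the nucleus to switch on Hes and Hey genes. Hes1 and Hes5 are repressors that hold back proneural factors such as Neurog1 and Neurog2, which drive neuron formation and also switch on Delta ligands. In the developing central nervous system this loop keeps some cells as radial glia while their neighbours become neurons, and in the oligodendrocyte lineage Notch activity is known for holding precursors back from differentiation.

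Recovered reads ranged from 12566345 to 38790312 per library. Replicate 3 of E13.5 spinal cord stood apart, with 40.9% of its reads in protein-coding genes against 82.4% to 91.1% in the other 11 libraries, and 3 reads were worth 0.506 CPM in it. P7 replicates 1 and 2 lay close to each other, with a chi-square per gene of 2.60 in brain and 3.99 in spinal cord, where 1 is sampling noise and the other pairs within a group lay between 19.1 and 874. They differed by more than sampling noise and were kept as separate replicates. The 5 precursor markers (Pdgfra, Cspg4, Olig1, Olig2 and Sox10) were detected in every library, with a summed level at E13.5 of 741 to 1232 CPM in brain and 486 to 715 CPM in spinal cord, and at P7 of 5069 to 5954 CPM and 4793 to 4869 CPM. CPM is the number of reads of a gene scaled to the rescaled size of its library. That size was 0.472 of the recovered reads in E13.5 spinal cord replicate 3, against 0.955 to 1.20 in the other 11 libraries. In these bulk samples fewer cells of a type and less RNA per cell cannot be told apart.

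The stretches upstream of the start sites of Hes5, Dll1 and Hes6 are shown because the first is a direct target of the receptor complex and the others are targets of proneural factors, whose levels are set side by side here. RefSeq stretches on build GRCm38.p6 were found for 8 of the 9 genes, and none was held for Hes1. In each, the 250 bases before the start site are given from 5′ to 3′ on the strand of the gene, with capitals for TGGGAA (the core of the Rbpj site) or its reverse complement in Hes5, and for CANNTG (the E-box bound by proneural factors) in Dll1 and Hes6. The Hes5 stretch is chr4:154960673-154960922 on the plus strand, of which 153 bases lie in exons of the antisense gene Gm20421. The Dll1 stretch is chr17:15376933-15377182 on the minus strand, within exons of the antisense gene A930024N18Rik, and the Hes6 stretch is chr1:91414039-91414288 on the minus strand and lies in no annotated exon.
Hes5: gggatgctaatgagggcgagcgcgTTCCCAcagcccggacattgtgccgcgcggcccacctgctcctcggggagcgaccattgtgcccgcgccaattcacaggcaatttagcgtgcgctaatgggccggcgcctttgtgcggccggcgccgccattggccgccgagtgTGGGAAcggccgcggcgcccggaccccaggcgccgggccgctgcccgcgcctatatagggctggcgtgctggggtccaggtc
Dll1: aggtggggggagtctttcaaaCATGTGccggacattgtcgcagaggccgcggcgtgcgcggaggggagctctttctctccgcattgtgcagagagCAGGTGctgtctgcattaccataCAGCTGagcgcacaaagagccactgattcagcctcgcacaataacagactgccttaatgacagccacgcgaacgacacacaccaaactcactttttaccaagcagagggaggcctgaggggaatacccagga
Hes6: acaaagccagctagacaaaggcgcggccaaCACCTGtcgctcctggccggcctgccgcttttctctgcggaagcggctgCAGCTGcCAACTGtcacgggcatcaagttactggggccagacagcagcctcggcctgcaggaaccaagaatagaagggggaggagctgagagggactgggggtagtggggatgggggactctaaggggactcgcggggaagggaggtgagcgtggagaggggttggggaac

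The Hes5 stretch holds 2 matches to TGGGAA, and the stretches found for the other members hold 0. Of all 32851 RefSeq stretches of the same length, 21.6% hold TGGGAA on either strand and 66.2% hold CANNTG, which the Dll1 and Hes6 stretches shown each hold 3 times. Each of these genes has a second RefSeq start site, further into the gene, whose stretch holds CANNTG 1 time, and the outermost start site is the one shown. CANNTG reads the same class of site on both strands and does not overlap TGGGAA in these stretches. CACNAG (the N-box bound by Hes repressors) was also searched on both strands and is held by 36.7% of all stretches. It was found 1 time in the Notch1 stretch, 1 time in the stretch of the second Hes6 start site and in none of the 3 shown. These matches describe the letters only.

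At P7 the proneural factors had nearly gone from the sorted cells in both regions, Dll3 and Hes5 stood higher than at E13.5, and Jag1 stood well below its E13.5 level. Of the 9 members, 5 were called between P7 and E13.5 in brain, 2 higher and 3 lower, where a call needs an adjusted p under 0.05 and more than a 2-fold change. The share called among all 18319 genes was 27.7% (11.0% higher and 16.7% lower). In spinal cord 6 members were called, 4 higher and 2 lower, against 35.1% of all genes (16.9% higher and 18.2% lower). The median log2 change of the members was -0.32 in brain and 0.54 in spinal cord, beside -0.19 and 0.12 over all genes tested. The members' libraries did not overlap between the ages for 7 of 9 in brain and 8 of 9 in spinal cord, where 72.6% and 70.8% of all genes were separated in the same way.

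**Figure D1:**
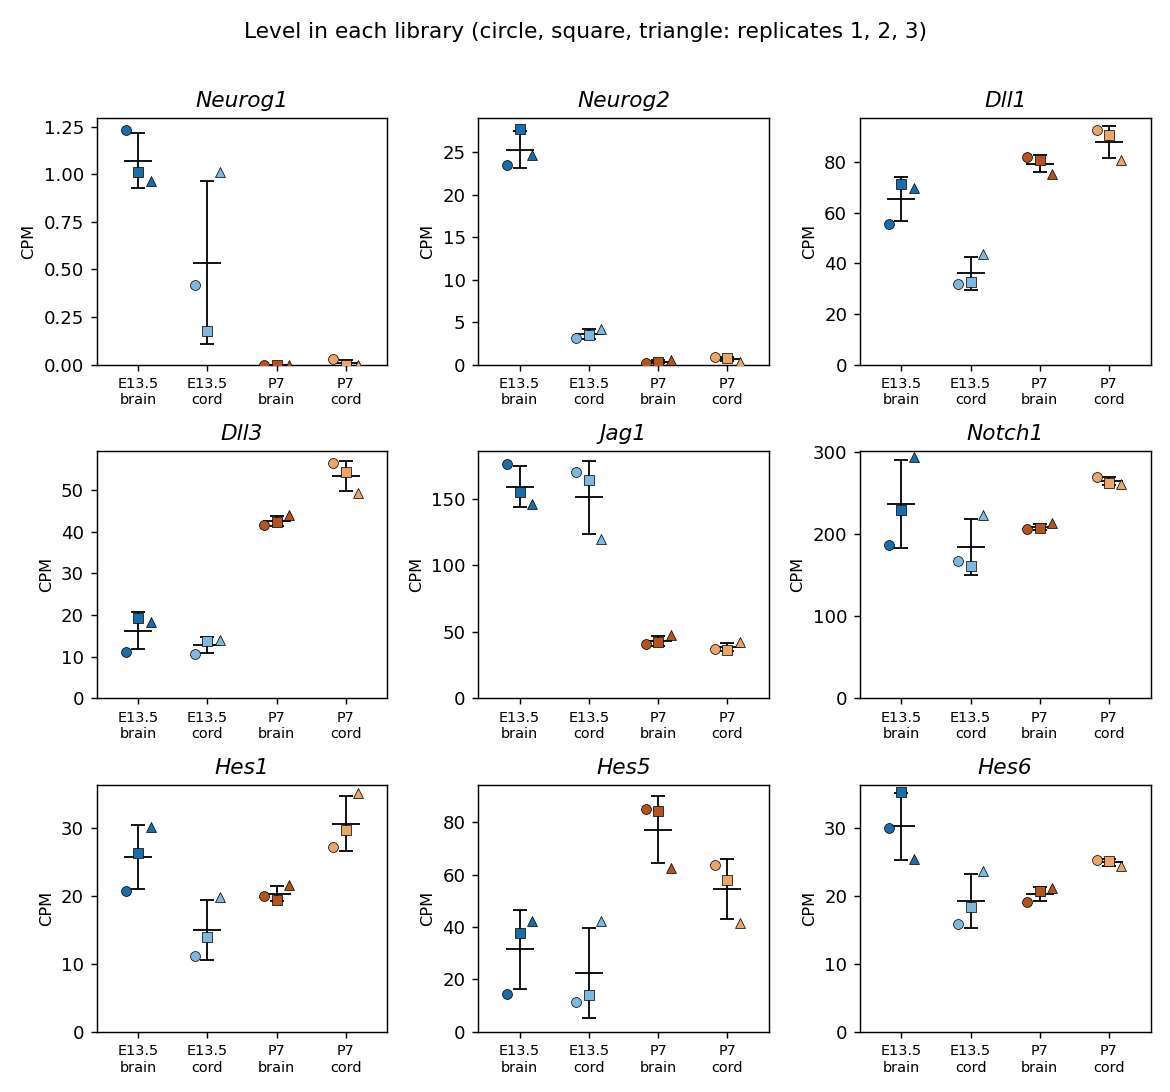
Level of each of the 9 genes in CPM (linear axis from 0) in the 12 libraries, with circles, squares and triangles for replicates 1, 2 and 3 and black bars for the mean ± SD of each group (n = 3). Neurog2 fell from 25.3 CPM in E13.5 brain to under 1 CPM in all 6 P7 libraries, while Hes5 showed a wide spread among the E13.5 libraries.

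Neurog2 (chr3:127633135-127635631, plus strand), a proneural factor of dorsal forebrain and of several spinal progenitor domains, was the most regional of the members at E13.5. Its level was 23.5, 27.7 and 24.7 CPM in the E13.5 brain libraries and 3.10, 3.47 and 4.22 CPM in the E13.5 spinal cord libraries. At P7 it was 0.182, 0.331 and 0.528 CPM in brain, from 6 to 20 reads, and 0.864, 0.771 and 0.341 CPM in spinal cord. The E13.5 brain libraries were all above the E13.5 spinal cord libraries, those in turn were above all P7 libraries, and the P7 regions overlapped. By limma on log2(CPM + 0.5), with p-values adjusted over all genes tested, Neurog2 fell by 4.95 ± 0.21 (SE) on the log2 scale in brain (adjusted p = 2.24e-09) and by 1.84 ± 0.21 in spinal cord (adjusted p = 6.87e-06). At E13.5 it was higher in brain by 2.66 ± 0.21 on the log2 scale (adjusted p = 2.13e-06), and the regional difference changed by -3.10 ± 0.30 from E13.5 to P7 (adjusted p = 1.52e-05).

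Neurog1 (chr13:56250478-56252163, minus strand), the related factor known from sensory and spinal precursors, was close to the detection limit. It had 26, 23 and 18 reads in the E13.5 brain libraries, or 1.24, 1.01 and 0.965 CPM, and 7, 4 and 6 reads in the E13.5 spinal cord libraries, or 0.417, 0.178 and 1.01 CPM. No P7 brain library held a read, and 1 read was found over the 3 P7 spinal cord libraries. Against the level of 3 reads in a P7 brain library (0.0792 to 0.0992 CPM), the pooled E13.5 brain level of 1.07 CPM was at least 10.8-fold higher. In spinal cord the ratio of E13.5 to P7 was 38.2, with an exact 95% counting interval of 5.99 to 1598. The limma test called the fall in brain (adjusted p = 5.84e-05) and not that in spinal cord, where the fitted change of -0.94 depends on the pseudocount (adjusted p = 0.00312). In the same comparison it was called at a pseudocount of 0.1, by limma-voom, edgeR and DESeq2 on the recovered reads, and without E13.5 spinal cord replicate 2. Neurog1 passed the filter on low values through E13.5 libraries alone, so the age with the higher level set its entry into the test. Neurog2 also needed its E13.5 libraries to pass, as its P7 libraries by themselves did not meet the filter. With no such filter, 9 members were tested and 5 called between ages in brain, 3 of them lower, as with the filter. A filter at 2 CPM left Neurog1 untested, and 4 of 8 members were then called in brain.

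Summed markers of intermediate progenitors and of neurons were higher at E13.5 than at P7, as Neurog2 was, though not every marker followed. The intermediate progenitor list (Eomes, Btg2 and Gadd45g) summed at E13.5 to 93.6 to 104 CPM in brain and 24.9 to 37.9 CPM in spinal cord, and at P7 to 18.3 to 18.5 CPM and 17.5 to 21.8 CPM. Eomes, which marks intermediate progenitors of the cortex, had a mean of 39.8 ± 8.93 CPM (SD, n = 3) in E13.5 brain and 0.0693 ± 0.0619 CPM in E13.5 spinal cord, and it had 0 reads in 1 E13.5 and 2 P7 spinal cord libraries. Between the ages limma called 3 of these 3 markers lower in brain and 0 of 3 in spinal cord, beside 16.7% and 18.2% of all genes. In spinal cord Btg2 was 23.2 and 13.2 CPM and Gadd45g 8.41 and 7.02 CPM at E13.5 and P7. The 8 neuron markers, all detected in every library, summed to 771 to 978 CPM at E13.5 and 441 to 514 CPM at P7 over both regions. Of these 8, limma called 2 lower in brain and 4 lower in spinal cord, beside the same 16.7% and 18.2% of all genes. Elavl3 rose in spinal cord from 59.9 to 168 CPM, and Snap25 was 23.0 CPM in E13.5 brain and 42.6 CPM in P7 brain. The part of these cells in the proneural levels was not tested.

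**Figure D2:**
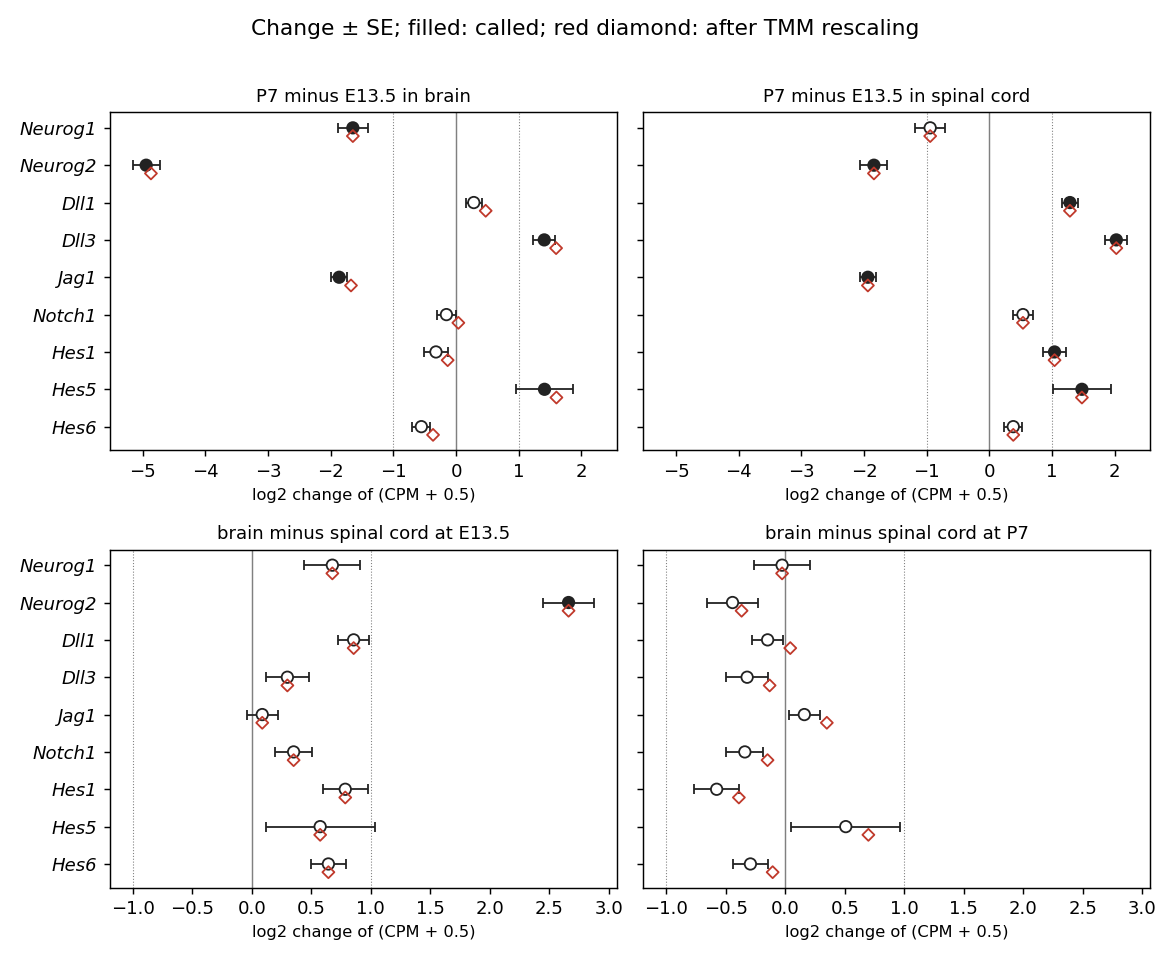
Change of the 9 genes on the log2(CPM + 0.5) scale in 4 comparisons, as circles with SE bars, filled where called, and red diamonds for the same change after rescaling the libraries by TMM. Dotted lines mark a 2-fold change, and the rescaling shifted only the panels that use P7 brain.

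Among the ligands, Dll3 rose and Jag1 fell with age in both regions. Dll3 (chr7:28293553-28302238, minus strand), a divergent Delta-like protein that mostly stays inside the cell and dampens Notch signalling in its own cell, was 11.1, 19.3 and 18.3 CPM in E13.5 brain and 10.6, 13.9 and 14.0 CPM in E13.5 spinal cord. At P7 it was 41.7, 42.3 and 44.0 CPM in brain and 56.5, 54.4 and 49.4 CPM in spinal cord. All 6 P7 libraries were above all 6 E13.5 libraries, and in the deposited scaling the P7 spinal cord libraries were above the P7 brain libraries. That regional difference was -0.32 on the log2 scale (limma, adjusted p = 0.202), or -0.13 after TMM rescaling (adjusted p = 0.689), and was not called. Dll3 rose by 1.41 ± 0.18 on the log2 scale in brain (limma, adjusted p = 2.05e-05) and by 2.03 ± 0.18 in spinal cord (adjusted p = 5.18e-07), and the change of its regional difference, -0.62 ± 0.25, was not called (adjusted p = 0.0681).

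Dll1 (chr17:15367354-15376872, minus strand), the main Delta ligand of neural progenitors, was 55.6, 71.4 and 69.7 CPM in E13.5 brain and 31.9, 32.8 and 43.7 CPM in E13.5 spinal cord. At P7 it was 82.0, 80.8 and 75.5 CPM in brain and 92.7, 90.7 and 80.9 CPM in spinal cord, where the regions overlapped. The spinal cord libraries at E13.5 were the lowest 3 of the 12. Dll1 rose by 1.29 ± 0.13 on the log2 scale in spinal cord (limma, adjusted p = 1.72e-06), or 0.98 by quantile normalization and then under 2-fold, and its change in brain was 0.28 ± 0.13 (adjusted p = 0.0734). The regional difference changed between the ages by -1.003 ± 0.18 (adjusted p = 0.00102), a value at the edge of the 2-fold limit. It was under 2-fold and not called after TMM (-0.81, adjusted p = 0.00496), median-ratio (-0.67) or quantile (-0.65) rescaling, with a pseudocount of 1 (-0.99) and with P7 replicates 1 and 2 averaged (-0.99). The same held when 1 library was left out, at -0.92 to -0.98, for E13.5 brain replicate 2 or 3, E13.5 spinal cord replicate 1 or 2, P7 brain replicate 3 and P7 spinal cord replicate 1 or 2. At E13.5 the brain level was above the spinal cord level by 0.86 ± 0.13 on the log2 scale, under 2-fold and so not called. A930024N18Rik, antisense to Dll1, averaged 1.06 CPM, and whether counting used the strand is not given in the sources used here.

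Jag1 (chr2:137081456-137116644, minus strand), a ligand of the Jagged family that is also made by vascular and mural cells, was 176, 155 and 146 CPM in E13.5 brain and 170, 164 and 120 CPM in E13.5 spinal cord. At P7 it was 40.5, 42.0 and 47.5 CPM in brain and 37.2, 36.4 and 42.4 CPM in spinal cord. The ages were far apart and the regions overlapped at each age. Jag1 fell by 1.87 ± 0.13 on the log2 scale in brain (limma, adjusted p = 1.23e-07) and by 1.94 ± 0.13 in spinal cord (adjusted p = 5.27e-08). The 6 mural and leptomeningeal markers (Col1a1, Dcn, Lum, Pdgfrb, Rgs5 and Foxc1), none at 0 in any library, summed at E13.5 to 1387 to 1924 CPM in brain and 2285 to 2804 CPM in spinal cord, and at P7 to 339 to 464 CPM and 302 to 626 CPM. All 6 were called lower at P7 in spinal cord and 5 of 6 in brain, beside 18.2% and 16.7% of all genes. In brain the pericyte marker Rgs5 rose from 6.48 to 15.5 CPM. Their part in the Jag1 level was not tested.

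Notch1 (chr2:26457903-26516663, minus strand), the receptor best known in neural progenitors, had the highest CPM of the members and one of the flattest profiles. It was 187, 229 and 293 CPM in E13.5 brain, 167, 161 and 223 CPM in E13.5 spinal cord, 207, 207 and 213 CPM in P7 brain and 270, 262 and 261 CPM in P7 spinal cord. The E13.5 libraries were scattered, with E13.5 brain replicate 3 the highest of all 12. Neighbours in the order of the 4 group means overlapped, but the ages were separate in spinal cord and, in the deposited scaling, so were the regions at P7. Its change in brain was -0.15 ± 0.16 on the log2 scale (limma, adjusted p = 0.407) and turned to 0.037 after TMM rescaling. In spinal cord its change was 0.54 ± 0.16 (adjusted p = 0.00820), under 2-fold and not called. The change of its regional difference, -0.69 ± 0.22 (limma, adjusted p = 0.0257), was also under 2-fold, and was -0.50 after TMM rescaling (adjusted p = 0.103).

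The other receptors did not keep level with Notch1. Notch2 averaged 294 CPM in E13.5 brain and 63.8 CPM in P7 brain, and 423 and 39.1 CPM in spinal cord. It fell by 2.19 ± 0.20 on the log2 scale in brain (limma, adjusted p = 9.88e-07) and by 3.45 ± 0.20 in spinal cord (adjusted p = 1.03e-08), and the change of its regional difference was 1.27 ± 0.28 (adjusted p = 0.00338). Notch3, a receptor typical of mural cells, fell in brain from 78.1 to 7.62 CPM and in spinal cord from 105 to 7.55 CPM. The mural and leptomeningeal sums given for Jag1 were lower at P7 as well, with the exception of Rgs5 in brain, and their part in these receptor levels was not tested.

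Within a library, shares of a gene family do not depend on the scaling between libraries. Each level was divided by exon length, here all annotated exons of a gene joined, with 14.2 kb for Notch1 and 10.8 kb for Notch2. The size of a share and the rank of a gene depend on this choice of length. Notch1 made up 23.4% to 35.3% of the summed level of the 4 receptors in E13.5 brain and 17.2% to 23.6% in E13.5 spinal cord, but 64.6% to 69.3% in P7 brain and 76.0% to 81.5% in P7 spinal cord. Among the 5 ligands Dll1, Dll3, Dll4, Jag1 and Jag2, the share of Jag1 in brain was 54.9% ± 6.41 (SD, n = 3) at E13.5 and 17.5% ± 1.33 at P7, and in spinal cord it was 61.7% ± 8.70 and 14.1% ± 1.89. The share of Dll3 was 11.4% ± 2.94 at E13.5 and 35.2% ± 0.711 at P7 in brain, with 10.8% ± 1.89 and 39.7% ± 0.739 in spinal cord. Jag1 had the largest share of these ligands in all 6 E13.5 libraries and Dll1 in all 6 P7 libraries. These shares were chosen after the levels were seen and carry no test.

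**Figure D3:**
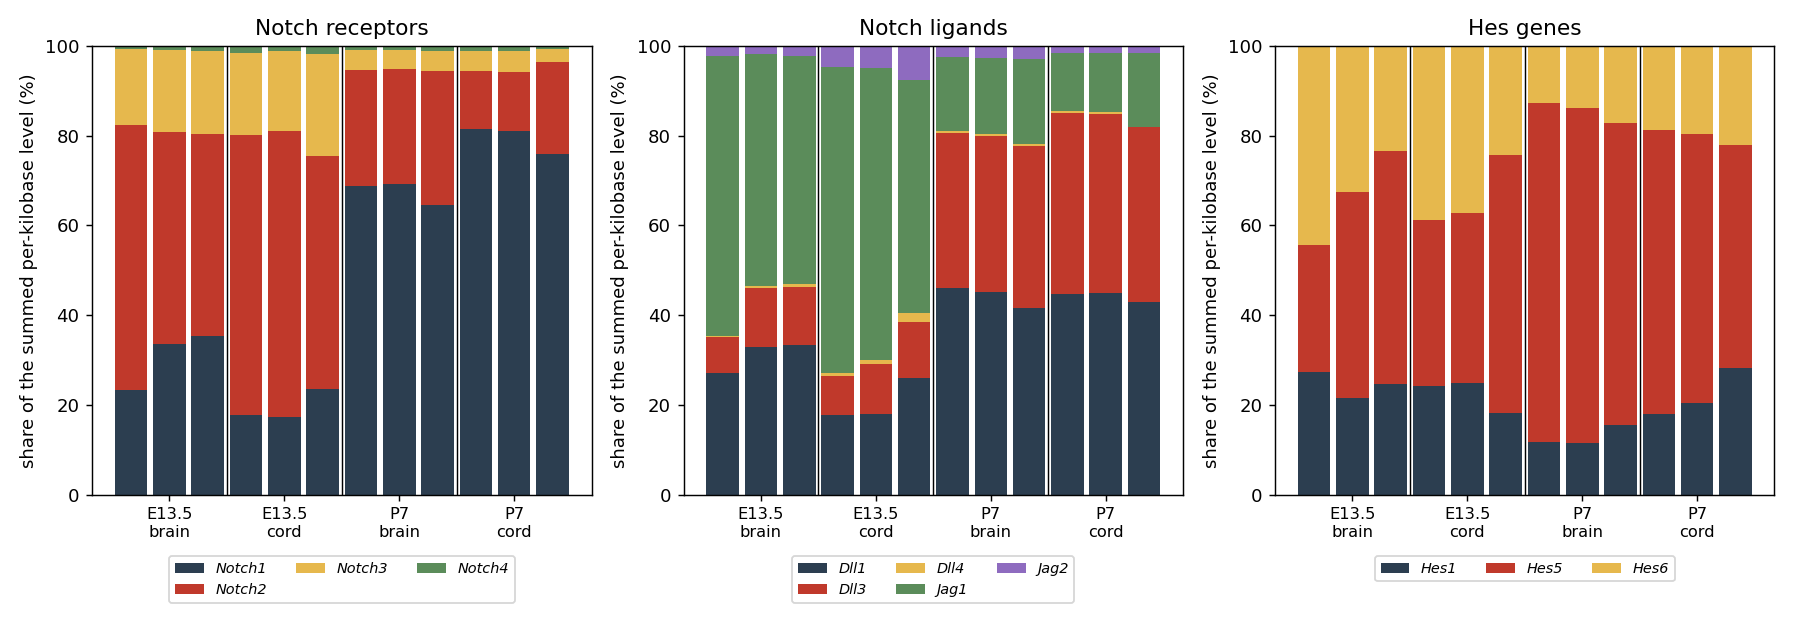
Share of each gene in the summed per-kilobase level (CPM divided by exon length) of the Notch receptors, the ligands and 3 Hes genes, with 1 stacked bar per library in the order of replicates 1 to 3 within each group. Notch1 was at most 35.3% of the receptors in the E13.5 libraries and at least 64.6% in the P7 libraries, and Jag1 gave way to Dll1 and Dll3 among the ligands.

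Of the targets, Hes5 was called higher at P7 in both regions and Hes1 in spinal cord. Hes5 (chr4:154960923-154962371, plus strand), the most direct readout of Notch activity among the Hes genes, was 14.3, 37.5 and 42.5 CPM in E13.5 brain and 11.3, 14.0 and 42.3 CPM in E13.5 spinal cord. At P7 it was 85.1, 84.1 and 62.4 CPM in brain and 63.8, 57.9 and 41.5 CPM in spinal cord. The ages were separate in brain, whereas in spinal cord the E13.5 library with the highest level, replicate 3, was above the lowest P7 library. Hes5 rose by 1.41 ± 0.46 on the log2 scale in brain (limma, adjusted p = 0.0176) and by 1.48 ± 0.46 in spinal cord (adjusted p = 0.0118), with the largest SE of the members. Leaving out 1 library ended both calls, with 0.93 in brain without E13.5 brain replicate 1 (adjusted p = 0.0860) and 1.11 in spinal cord without E13.5 spinal cord replicate 1 (adjusted p = 0.0559), and averaging P7 replicates 1 and 2 gave 1.34 (adjusted p = 0.0669) and 1.39 (adjusted p = 0.0502). The brain call was also lost without P7 brain replicate 1 (adjusted p = 0.0524) or replicate 2 (adjusted p = 0.0517).

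The spread of Hes5 within groups was shared by some other genes of the pathway. In E13.5 spinal cord it was not particular to the targets, since in the deposited scaling all members except Jag1 were highest in replicate 3. That is the library with 40.9% of its reads in protein-coding genes and a scaling factor of 0.472. Its CPM values are therefore high relative to its total reads, and the order of the replicates depends on this scaling. The part of this library in these levels was not tested. Nrarp, a feedback inhibitor that Notch switches on, was 14.3, 22.9 and 26.7 CPM in E13.5 brain, 7.98, 8.67 and 14.5 CPM in E13.5 spinal cord, 102, 106 and 65.9 CPM in P7 brain and 64.3, 62.7 and 49.5 CPM in P7 spinal cord. Its replicate 1 was the lowest in both E13.5 groups and its replicate 3 the lowest in both P7 groups, the same libraries as for Hes5. Lfng, a glycosyltransferase that tunes Notch for its ligands, was also lowest in replicate 1 and highest in replicate 3 at E13.5, with 10.7, 17.1 and 21.2 CPM in brain and 4.94, 6.22 and 16.7 CPM in spinal cord. Of the radial glia markers, Fabp7 was 241, 506 and 435 CPM in E13.5 brain and 932, 928 and 568 CPM in P7 brain. Fabp7 does not stand for its list, as limma called 1 of the 5 radial glia markers higher and 3 lower at P7 in each region. Of all genes, 11.0% were higher and 16.7% lower in brain, and 16.9% and 18.2% in spinal cord. The 5 radial glia markers summed to 1636, 1962 and 1985 CPM in E13.5 brain and 1572, 1569 and 1105 CPM in P7 brain, so their lowest libraries were those of Hes5. In spinal cord these sums were 1160 to 1229 CPM at E13.5, lowest in replicate 1, and 803 to 836 CPM at P7, lowest in replicate 2. The precursor markers were also lowest in E13.5 brain replicate 1 (741 CPM, against 1199 and 1232) and P7 brain replicate 3 (5069 CPM, against 5954 and 5876). The 5 markers of differentiating oligodendrocytes summed to 1497, 1491 and 3697 CPM in P7 brain, highest in replicate 3, but to 22138, 21908 and 16622 CPM in P7 spinal cord, lowest in replicate 3. The part of these cells in the Hes5 level was not tested.

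**Figure D4:**
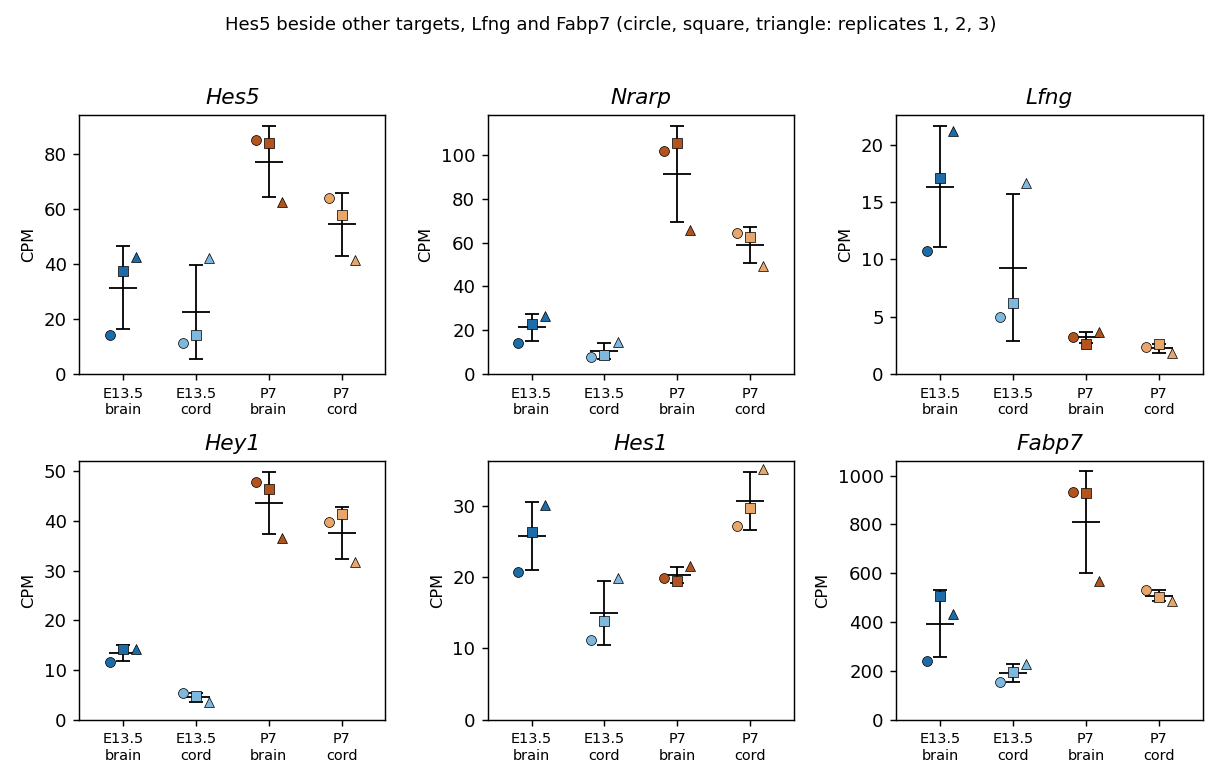
Level of Hes5, Nrarp, Lfng, Hey1, Hes1 and Fabp7 in CPM (linear axes from 0) by library, with circles, squares and triangles for replicates 1, 2 and 3 and bars for mean ± SD (n = 3). In both P7 groups Hes5, Nrarp, Hey1 and Fabp7 were lowest in replicate 3, whereas Hes1 was highest there.

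Hes1 (chr16:30064384-30067796, plus strand), a repressor that Notch and other signals drive, was 20.8, 26.4 and 30.2 CPM in E13.5 brain and 11.1, 13.9 and 19.9 CPM in E13.5 spinal cord. At P7 it was 19.9, 19.4 and 21.6 CPM in brain and 27.2, 29.7 and 35.1 CPM in spinal cord. In the deposited scaling the brain level was the higher at E13.5 and the lower at P7, with no overlap of the regions at either age. After TMM rescaling the difference at P7 was -0.39 on the log2 scale (limma, adjusted p = 0.195). Hes1 rose by 1.04 ± 0.19 on the log2 scale in spinal cord (limma, adjusted p = 0.000326) and its change in brain was -0.32 ± 0.19 (adjusted p = 0.159). The regional difference went from 0.79 ± 0.19 at E13.5 to -0.58 ± 0.19 at P7, neither of them called, and changed by -1.36 ± 0.27 (adjusted p = 0.00175), or -1.17 after TMM rescaling (adjusted p = 0.00530). The spinal cord change was under 2-fold without E13.5 spinal cord replicate 1 (0.85) and without P7 spinal cord replicate 3 (0.94), and by median-ratio (0.90) or quantile (0.85) scaling.

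Hes6 (chr1:91411483-91414038, minus strand), which opposes Hes1 and acts on the side of the proneural factors, changed by less than 2-fold with age in both regions. It was 29.9, 35.3 and 25.5 CPM in E13.5 brain, 15.8, 18.4 and 23.6 CPM in E13.5 spinal cord, 19.1, 20.7 and 21.1 CPM in P7 brain and 25.2, 25.1 and 24.4 CPM in P7 spinal cord. In the deposited scaling the libraries of the regions were separate at both ages, with brain above spinal cord at E13.5 and below it at P7. After TMM rescaling the difference at P7 was -0.10 on the log2 scale (limma, adjusted p = 0.691). The limma log2 changes were -0.55 ± 0.14 in brain (adjusted p = 0.00514) and 0.38 ± 0.14 in spinal cord (adjusted p = 0.0320), both under 2-fold and not called. The change of the regional difference, -0.93 ± 0.20 (adjusted p = 0.00334), was also under 2-fold. It passed 2-fold by limma-voom on the recovered reads (-1.02), without E13.5 brain replicate 3 (-1.05) and without E13.5 spinal cord replicate 3 (-1.09).

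Per kilobase of exon, Hes5 had the highest mean level of the 9 members in P7 brain (56.6 ± 9.41 CPM per kb, SD, n = 3) and P7 spinal cord (39.9 ± 8.47). At E13.5 Jag1 had the highest mean, with 27.3 ± 2.65 in brain and 25.9 ± 4.71 in spinal cord, and Hes5 had 23.1 ± 11.0 and 16.5 ± 12.6 with overlapping spreads. Hes5 was above Jag1 in E13.5 brain replicates 2 and 3 and in E13.5 spinal cord replicate 3, and below it in the other E13.5 libraries. Within the 3 Hes genes the share of Hes5 in brain was 42.0% ± 12.3 at E13.5 and 72.5% ± 4.48 at P7, and in spinal cord it was 44.0% ± 11.8 and 57.6% ± 6.96.

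Between the regions at E13.5, 1 of 9 members was called (Neurog2, higher in brain), against 8.71% of all genes (3.53% higher and 5.17% lower in brain), and without E13.5 spinal cord replicate 3 there were 3, with Hes1 at 1.00 and Hes5 at 1.15 added. The median over the members was 0.64 on the log2 scale and over all genes 0.05, with the member libraries separate for 4 of 9 where 37.7% of all genes were. At P7 limma called 0 of 9 members against 6.62% of all genes (2.27% higher and 4.35% lower in brain). The count was also 0 by limma-voom, edgeR and DESeq2, and 1 member, Hes1, had an unadjusted p under 0.05 by limma (adjusted p = 0.0375, or 0.195 after TMM rescaling). The member libraries were separate between the regions at P7 for 4 of 9, where 61.7% of all genes were. The P7 brain libraries carry a deposited scaling 13.1% to 16.3% above that of TMM, and at P7 the median difference was -0.29 over the members and -0.19 over all genes, or -0.10 and -0.02 after TMM rescaling, under which Dll1 turned from -0.15 to 0.043. The share of all called genes that were higher in brain at P7 was 34.3%, or 46.6% after TMM rescaling. The corresponding share higher at P7 in brain was 39.7%, or 49.1%.

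The change of the regional difference from E13.5 to P7 was called for 3 of 9 members (Neurog2, Dll1 and Hes1, all toward less brain or more spinal cord), against 16.3% of all genes (9.66% in this direction and 6.66% in the other). After TMM rescaling it was called for 2 of 9, against 15.0% of all genes (6.77% in this direction), and the share of all called genes with a positive change went from 40.8% to 54.9%. Without E13.5 spinal cord replicate 3 it was called for 5 of 9, with Neurog1 and Hes6 added.

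The rest of the pathway was described by a list of 52 other genes, 47 of them tested. Of these 47, limma called 18 between P7 and E13.5 in brain (6 higher, 12 lower), where 27.7% of all genes were called. The spinal cord comparison called 25 of them (9 higher, 16 lower), beside 35.1% of all genes. Their median log2 change was -0.16 in brain and -0.26 in spinal cord, beside -0.19 and 0.12 over all genes tested. After TMM rescaling the brain median was -0.0026, with 7 called higher and 12 lower, beside -0.02 over all genes. Of the other ligands, Jag2 averaged 7.23 CPM in E13.5 brain and 7.93 CPM in P7 brain, but 16.6 and 5.40 CPM in spinal cord, and fell there by 1.51 ± 0.16 on the log2 scale (adjusted p = 2.33e-06). Dll4, the ligand of endothelial cells, fell in spinal cord from 1.92 to 0.627 CPM, while the 6 endothelial markers summed to 104 to 126 CPM there at E13.5 and 21.3 to 27.4 CPM at P7. Their part in the Dll4 level was not tested. Dlk1, an imprinted relative of the Delta ligands without the receptor-binding domain, fell in brain from 32.6 to 0.338 CPM and in spinal cord from 39.1 to 1.94 CPM. Dner, a neuronal ligand-like protein, rose in brain from 63.4 to 211 CPM and in spinal cord from 92.9 to 218 CPM.

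**Figure D5:**
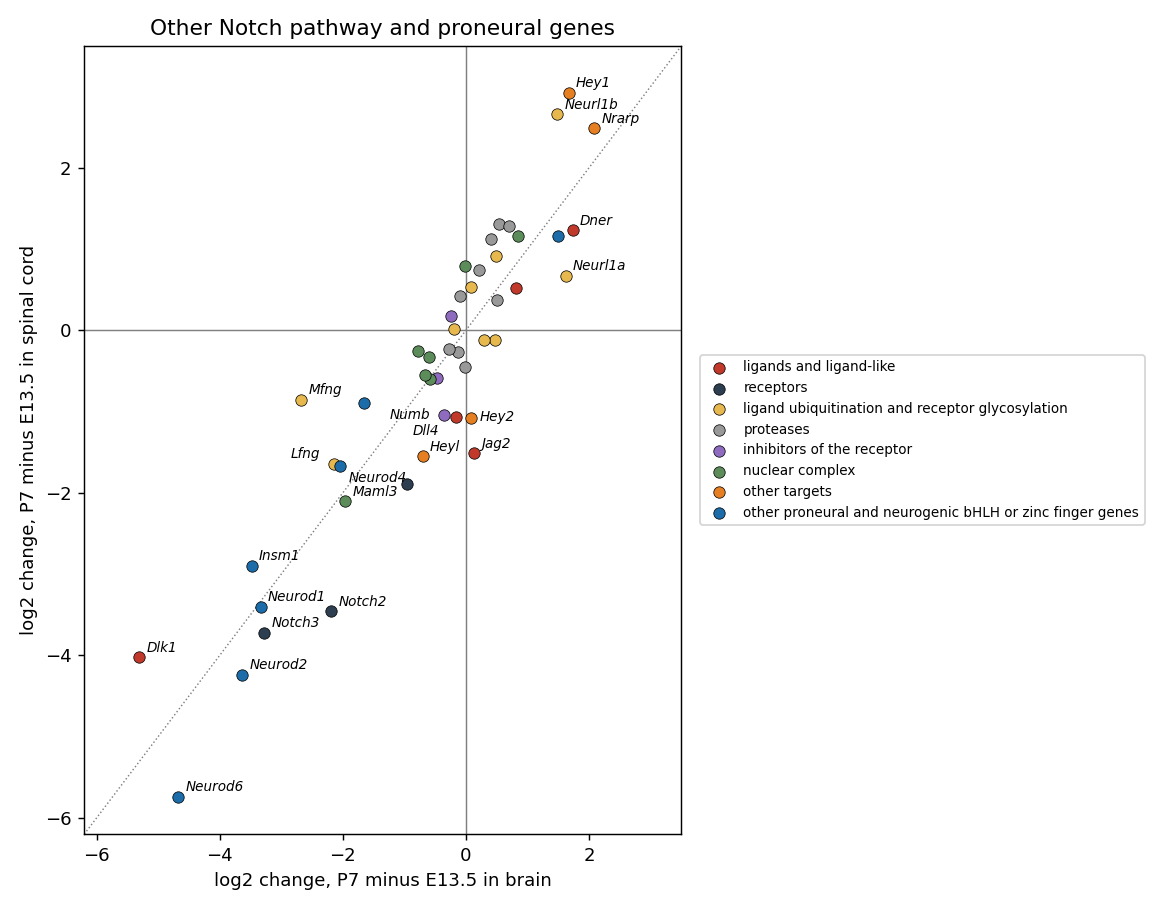
Log2 change from E13.5 to P7 in brain (horizontal) and in spinal cord (vertical) of the 47 tested genes of the pathway list, 1 point per gene, coloured by role, with a dotted line of equal change and symbols beside most of the named genes. Neurod2, Neurod6, Dlk1 and Notch3 lie far below 0 in both regions and Hey1 and Nrarp lie above 0 in both.

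The other targets split by gene. Hey1 rose by 1.67 ± 0.16 on the log2 scale in brain (limma, adjusted p = 2.40e-06) and by 2.92 ± 0.16 in spinal cord (adjusted p = 9.84e-09), and Nrarp rose by 2.09 ± 0.26 and 2.49 ± 0.26. Hey2 and Heyl, Hey genes best known from heart and vessels, fell in spinal cord by 1.07 ± 0.13 and 1.55 ± 0.16 and were not called in brain. Hes2, Hes3 and Hes7 did not reach the filter, with at most 13 reads in any library. Rbpj, the DNA-binding partner of all Notch receptors, averaged 115 CPM at E13.5 and 67.1 CPM at P7 in brain, with 120 and 99.0 CPM in spinal cord, and was called in neither comparison of ages. Among its coactivators, Maml3 fell in both regions and Maml2 rose in spinal cord by 1.16 ± 0.14, with 0.84 ± 0.14 in brain, which passed 2-fold after TMM rescaling (1.03).

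Of the enzymes that act on ligands and receptors, 4 of 9 were called in brain and 2 of 9 in spinal cord, where 27.7% and 35.1% of all genes were called. Neurl1b, a ligase that sends ligands into the cell, rose in brain from 7.89 to 23.0 CPM and in spinal cord from 4.67 to 31.3 CPM, and Neurl1a rose in brain from 6.60 to 21.5 CPM. Lfng fell in both regions, and Mfng fell in brain from 25.2 to 3.51 CPM. Of the 9 proteases, limma, limma-voom, edgeR and DESeq2 called 0 in brain, where 4 had an unadjusted p under 0.05 by limma, and limma called 3 in spinal cord, all higher (16.9% of all genes), among them the gamma-secretase subunits Aph1a (34.9 to 86.6 CPM) and Aph1b (27.7 to 68.2 CPM). Numb, which inhibits the receptor, fell in spinal cord from 31.9 to 15.1 CPM.

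Of the other neurogenic genes on the list, 7 were tested, and limma called 6 lower and 1 higher at P7 in brain, where 16.7% of all genes were lower and 11.0% higher. In spinal cord it called 5 lower and 1 higher, where 18.2% and 16.9% of all genes were. The gene called higher was Myt1, a zinc finger factor also made in the oligodendrocyte lineage, named here after its values were seen, with 147 CPM at E13.5 and 411 CPM at P7 in brain and 160 and 354 CPM in spinal cord. Neurod1, a factor of differentiating neurons, fell in brain from 10.8 to 0.586 CPM and in spinal cord from 5.60 to 0.0771 CPM, and Neurod2, Neurod4, Neurod6 and Insm1 fell in both comparisons as well. At P7 Neurod2, Neurod6 and Insm1 were still higher in brain than in spinal cord, with Neurod6 at 2.05 against 0.0902 CPM.

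The genes whose pattern was most like that of a member were picked by the smallest root mean square difference of the centred log2 values over the 12 libraries, among 13415 protein-coding genes. For Neurog2 these were Lhx9 (0.39) and Sema3a (0.44), and for Hes5 they were Orai1 (0.38) and Fabp7 (0.41). Flatter members had closer matches, with Slc25a5 (0.05) and Eif1ax (0.10) for Dll1, Eif3l (0.08) and Tufm (0.09) for Notch1, Hspa8 (0.09) and Cycs (0.12) for Hes1, and Msantd4 (0.10) and Ola1 (0.11) for Hes6. For Dll3 they were Tceal1 (0.13) and Slc25a15 (0.15), for Jag1 Mllt3 (0.11) and Setbp1 (0.13), and for Neurog1 A930004D18Rik (0.20) and Bcar3 (0.21).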

How the data were processed

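The authors deposited 1 table of read counts scaled to library size (CPM), without a log, for 12 stranded total RNA libraries, each a pool of sorted cells from several animals. Per the study's methods, reads were aligned with STAR (version 2.5.0a) to mm10 and counted on GENCODE M8 with featureCounts (version 1.5.0-p1), with reads of several places shared out and rounded. Each deposited value is a count divided by a rescaled library size, so 3 of the 12 columns sum to more than plain CPM can and are a scaled signal rather than plain CPM. All values were whole multiples of 1 read (100.0%, within 0.01 reads), and reads were recovered from them. The deposited scaling equals TMM in 9 libraries and is 13.1% to 16.3% above it in P7 brain. No column was left out (0 not used).

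Groups were taken from the sample titles. Symbols and positions came from GENCODE M21 on the same build. Genes with at least 0.7 CPM in 3 libraries were kept (18319), and limma (version 3.58.1, R 4.3.3) with an intensity trend was fitted to log2(CPM + 0.5) with 1 mean per group over all 12 libraries. Fold changes on this scale understate those of low genes. A gene was called at a Benjamini-Hochberg adjusted p under 0.05, over all genes tested, and a change over 2-fold. The study used limma-voom, which was run on the recovered reads as an alternative beside edgeR (version 4.0.16) and DESeq2 (version 1.42.0). On simulated counts for P7 minus E13.5 in brain (18319 genes, 200 changed 4-fold), limma recovered 194. These counts had the same small spread setting for every gene, and only genes above a minimum of reads were changed. The figure therefore does not give the recovery for low or scattered members such as Neurog1 and Hes5. The libraries of a group may share animals, so p-values measure the spread between these pools. Floors and intervals cover counting error only. No member shares a run of 75 bases with transcripts of another gene.

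The members and lists were chosen with earlier results of these data known. Named are all 9 members, 12 other pathway genes whatever their values, and in each role the 2 called genes with the largest change in each comparison. Of the genes in the list, 1 was left out and is not reported here.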

Additional observations from a re-analysis of the deposited data

Results flagged for a closer look

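The regional difference (brain minus spinal cord) changed between E13.5 and P7 by a direct limma test of the change, on the log2 scale, for Neurog2 (-3.10), Hes1 (-1.36) and Dll1 (-1.003). Among the other named genes of the pathway it changed for Mfng (-1.82), Dlk1 (-1.28), Hey1 (-1.26) and Neurl1b (-1.18) in the same direction, and for Jag2 (1.64), Notch2 (1.27), Hey2 (1.16) and Neurod6 (1.07) in the other. After TMM rescaling the changes of Dll1 (-0.81) and Neurl1b (-0.99) were under 2-fold, and those of the other 9 stayed over it.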

How the results depend on the processing

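Of 1183 values of the members (45 values under up to 27 alternatives), 1117 kept their direction and their side of the threshold. A further 23 were no longer called, 23 became called and 20 turned sign, all 20 for values not called. Those that became called include values of unchanged size, where the alternative only dropped the fold requirement. E13.5 levels are limited by E13.5 spinal cord replicate 3, the shallowest library. Without a fold requirement the members called, of 9, numbered 6 and 9 between ages in brain and spinal cord. They numbered 5 and 1 between regions at E13.5 and P7, and 5 for the change of the regional difference. Of all 18319 genes, 11227 and 12822 were called between ages in brain and spinal cord, 5979 and 5491 between regions at E13.5 and P7, and 7290 for that change. At E13.5 limma-voom called 2 members between regions.

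Leaving out 1 library gave 4 to 5 members between ages in brain, 4 to 7 in spinal cord, 1 to 3 between regions at E13.5, 0 at P7 and 2 to 5 whose regional difference changed, with 4952 to 5113, 6305 to 7045, 1541 to 1802, 1146 to 1291 and 2796 to 3817 genes in all. The highest values of 3 and 5 members came without E13.5 spinal cord replicate 3.

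Signs turned for Dll1 between regions at P7 by TMM (0.043), median-ratio (0.089) and quantile (0.14) scaling, for Jag1 at E13.5 by median-ratio (-0.0071) and quantile (-0.019) scaling, and for Notch1 between ages in brain by TMM (0.037) and median-ratio (0.038) scaling. The change of the regional difference of Hes5 turned by TMM (0.13), median-ratio (0.26) and quantile (0.21) scaling and by DESeq2 (0.015). Leaving out 1 library took it from -0.64 to 0.30, Jag1 between regions at E13.5 from -0.072 to 0.18, its change of the regional difference from -0.019 to 0.23 and Notch1 in brain from -0.31 to 0.014. The cause was not tested.

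The replicate numbers are shared by the groups, but same-numbered brain and spinal cord libraries had correlations of their deviations of 0.31, 0.08 and 0.41 at E13.5 and 0.01, 0.02 and 0.04 at P7 and the crossed pairs of replicates 1 and 3 at E13.5 had -0.30 and -0.44. Not every same-numbered pair correlated, so the numbers were not taken to pair the libraries, and whether the E13.5 libraries share a batch was not settled by these values. With the replicate number as a block limma called 5 and 6 members between ages in brain and spinal cord, 1 and 0 between regions at E13.5 and P7 and 3 for the change, as without it, and 5074, 6438, 1595, 1212 and 2994 genes in all. Not every library correlated best with its own number.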
